A study of Mus musculus with 18 samples.

Results

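Cumulus cells, the granulosa cells that surround and feed the oocyte, were compared at 12 h and at 0 h of treatment with human chorionic gonadotropin (hCG), which acts as the luteinizing hormone surge that triggers ovulation. RNA was sequenced from 6 libraries of the 18 in the series, 3 cumulus libraries at 12 h and 3 at 0 h, chosen by the cell and the time in their titles and the matching columns of the count table. All came from ovaries of WT mice, and every group in the series, including the 0 h group, is labelled by a time after hCG. The other libraries were cumulus cells at 4 h and mural granulosa cells, which line the follicle wall, at 0, 4 and 12 h. The sources used here do not say how many animals gave the cells of a library, whether animals were pooled, or how oocytes were removed.

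The cell type field of the labels did not follow the titles. Of the 9 libraries titled as cumulus cells, 8 carried the mural granulosa cell type and 1 carried none, so the titles were set against markers. Lhcgr, the receptor that hCG binds and a gene of mural cells at this stage, had 13.7, 9.45 and 2.41 CPM in the 0 h cumulus libraries and 689.5, 729 and 569 CPM in the 0 h mural libraries. Npr2, the natriuretic peptide receptor known to be high in cumulus cells, had 1037, 911 and 931 CPM and 689, 593 and 612 CPM in the same order. Neither gene overlapped between the cell types at 0 h. Slc38a3 and Amh, which also mark cumulus cells, did not separate them at 0 h: Slc38a3 had 96.1, 148 and 113 CPM in cumulus libraries and 141, 137 and 162 CPM in mural libraries. At 12 h the cumulus libraries had 970.3, 671 and 816 CPM of Ptx3, a protein of the expanded cumulus matrix, and the mural libraries 26.4, 10.6 and 13 CPM, also without overlap. At 12 h Slc38a3 had 1.03, 1.38 and 1.58 CPM in cumulus libraries and 113, 63.55 and 93.7 CPM in mural libraries. Amh had 14.7, 11.3 and 7.69 CPM and 215, 115 and 211 CPM in the same order. Npr2 was also lower in every cumulus library of 12 h, so these markers did not follow the titles at that time. The libraries at both times also held granulosa genes in general: the summed level of 12 cumulus and granulosa markers was 3564 to 4304 CPM at 12 h and 9527 to 13000 CPM at 0 h. CPM are counts per M (mega) of a library's scaled counts.

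In a follicle before the surge, cumulus cells are held by gap junctions and thin projections to the oocyte, pass it metabolites and cGMP, and keep it in meiotic arrest. The surge reaches them mainly through EGF-like ligands released by mural cells. They then lose their contacts, secrete a matrix of hyaluronan crosslinked by proteins, stop dividing, and turn towards progesterone synthesis as the cumulus mass is ovulated with the oocyte.

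Libraries held 36.9 M to 41.3 M counts at 12 h and 37.3 M to 43.7 M counts at 0 h, where M stands for mega. A count of 0 in a library allows up to 3 counts, and this floor lay between 0.06 and 0.0887 CPM and covers counting error only. The summed level of 16 oocyte markers was 7.06, 9.59 and 5.12 CPM at 12 h, against 467, 2266 and 2391 CPM at 0 h. Mitochondrially encoded genes took 2.52%, 2.54% and 2.98% of counts at 12 h, against 12.8%, 8.49% and 8.5% at 0 h. The 0 h library of replicate 1 stood apart from the others of its group. Against replicates 2 and 3 its chi-square per degree of freedom over genes was 73.6 and 75.2, while those 2 differed from each other by 8.31 and the 12 h libraries differed among themselves by 7.81 to 11.8. It had the lowest oocyte sum and the highest mitochondrial share of its group, and high immediate early genes, so results that rest on it are given without it as well. All pairs of libraries differed by more than counting noise, and nothing in the labels says that libraries came from separate cultures or animals, so the p-values speak only of variation among these libraries, part or all of which may be technical.

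**Figure D1:**
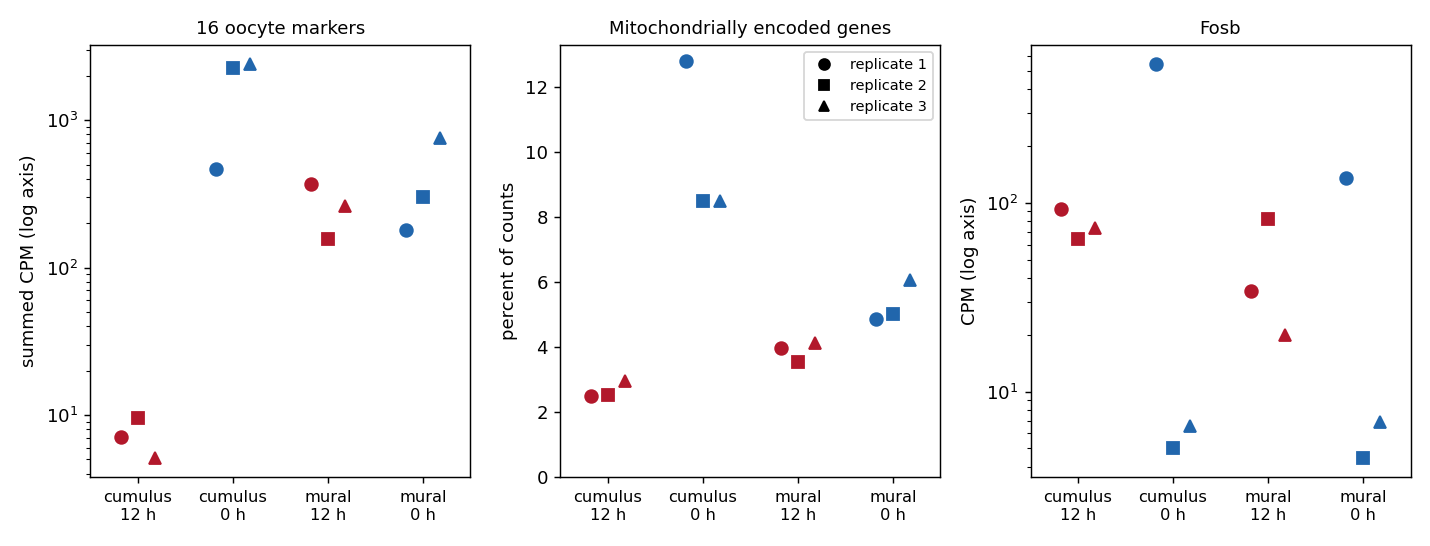
Each point is a library: summed CPM of 16 oocyte markers (left, log axis), percent of counts from mitochondrially encoded genes (middle) and CPM of Fosb (right, log axis) in cumulus and mural libraries at 12 h and 0 h, with symbols for the replicate number. The 12 h cumulus libraries sit between 5.12 and 9.59 CPM of oocyte markers, below all others, and replicate 1 of the 0 h cumulus group stands apart in all 3 panels.

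Of 19941 genes tested with edgeR's quasi-likelihood test, 12796 were called at an adjusted p under 0.05, which is 64.2% of them. Among these 6226 rose (31.2%) and 6570 fell (32.9%) at 12 h relative to 0 h. Tested against a 2-fold change, 2828 genes were higher (14.2%) and 3393 lower (17%). The median log2 change over all genes tested was -0.09, and the median absolute change was 0.97. The libraries of the 2 times did not overlap for 69.3% of genes. With library totals in place of TMM scaling the median moved to -0.34, and 5018 genes were higher and 8137 lower, so that 38.1% of the calls were higher, against 48.7% with TMM. All counts of gene groups below are to be read against these shares.

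Genes linked to oocyte RNA made up many of the falls. A gene was termed oocyte-linked when its level followed the oocyte marker sum over the 6 cumulus libraries of 0 and 4 h, with the group means taken out (r of at least 0.8 and a slope of at least 0.3 on the log2 scale), or when it was an oocyte marker. Of 2983 such genes 1832 fell, 207 rose and 944 were not called. Of the 2060 called genes with a log2 change under -3, 1188 were oocyte-linked, against 46 of the 1246 called genes with a change over 3. This contrast is partly set by the rule. A gene with almost no reads at 0 and 4 h can hardly be termed linked, while a gene present then and lost at 12 h can. A link describes 6 libraries and does not show that a gene fell through loss of oocyte RNA. Without the oocyte-linked genes 6019 of the called genes were higher and 4738 lower. In bulk RNA, fewer oocytes or cells of a type and less RNA per cell cannot be told apart.

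**Figure D2:**
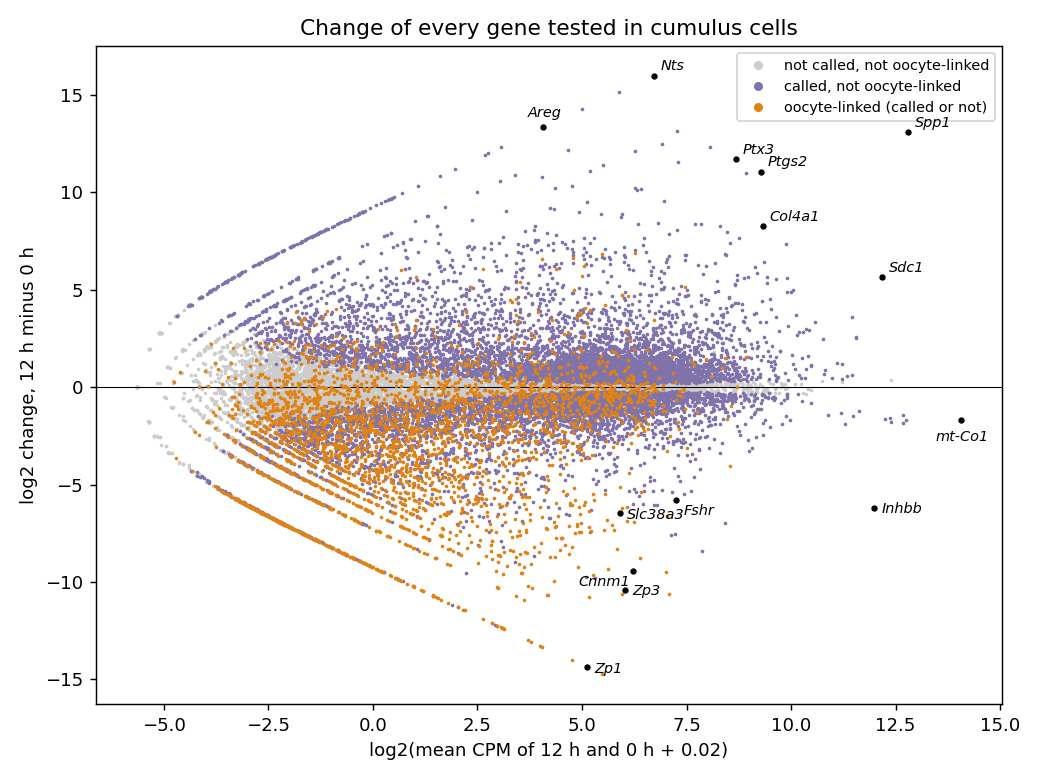
Each point is 1 of the 19941 genes tested, by its mean level over 12 h and 0 h (log2(CPM + 0.02)) and its log2 change at 12 h. Orange points are oocyte-linked genes and lie mostly below 0, while Spp1, Ptx3 and Ptgs2 stand at log2 changes of 13.09, 11.69 and 11.07. Points of genes with no read at 1 time, such as Nts, depend on the prior count of the fit.

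The 10 largest falls, among named genes with at least 20 CPM at the higher time and no overlap, were all oocyte-linked: Eif4e1b, Zp1, Fbxw21, Tuba3a, Fbxw16, Elobl, Umodl1, Padi6, Zp2 and Zp3. Zp3, which encodes a protein of the zona pellucida around the oocyte, had 0.0296, 0.0879 and 0.159 CPM at 12 h, against 42, 176 and 176 CPM at 0 h (log2 change -10.39, SE 1.08, adjusted p 2.06e-07). Padi6, a protein of the oocyte's cytoplasmic lattices, had 0.296, 0.205 and 0.0264 CPM at 12 h, against 63.4, 367 and 386 CPM at 0 h. Zp1, another zona pellucida gene, had no read in the 3 libraries at 12 h, against 19, 87.2 and 101 CPM at 0 h, which is at least 2570-fold lower at 12 h against a floor of 3 counts over the group. Lack of overlap between the times was a condition for choosing these genes, and for all 3 replicate 1 was the lowest at 0 h. The Fbxw and Tuba3 genes have close paralogs, and reads shared between near-identical copies were not counted as unique, so their levels are uncertain.

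Outside the oocyte-linked genes 4738 genes fell. The 10 largest such falls, again among named genes with at least 20 CPM at the higher time and no overlap, were Cnnm1, Mycl, Stra6, Slc47a2, Ihh, Mro, Kctd14, Nppc, Mmd2 and Kank4. Cnnm1, a membrane protein of the cyclin M family, had 0.236, 0.234 and 0.159 CPM at 12 h, against 171, 131 and 141 CPM at 0 h (log2 change -9.45, SE 0.42, adjusted p 3.65e-12). Mycl, a transcription factor of the Myc family (chr4:122995652-123002485, plus strand in GRCm38), had 0.887, 1.29 and 1.9 CPM at 12 h, against 486, 473 and 441 CPM at 0 h (log2 change -8.41, SE 0.39, adjusted p 5.46e-12). Ihh, the Indian hedgehog ligand that granulosa cells send to theca cells, had 1.66, 1.7 and 1.45 CPM at 12 h, against 353, 277 and 262 CPM at 0 h (log2 change -7.53, SE 0.38). Stra6, the cell surface receptor for retinol binding protein, had 0.236, 0.176 and 0.211 CPM at 12 h, against 53.4, 40.5 and 43.7 CPM at 0 h (log2 change -7.76, SE 0.49). That the libraries of the 2 times were apart was a condition for choosing these genes.

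By the fitted change, the 10 largest rises under the same conditions of level and no overlap were Nts, Krt23, Areg, Ereg, Spp1, Egr3, Ptprn, Sult1e1, Olr1 and Ptx3. Nts, Krt23 and Areg had no read at 0 h and Sult1e1 had 1, so their places in this order depend on the prior count of the fit; on its bound of at least 1440-fold, Areg would stand below genes that are not among the 10, such as Pdcd1, Ptgs2 and Tnfaip6 (log2 changes of 11.56, 11.07 and 10.97). Nts, which encodes the neuropeptide neurotensin (chr10:102481756-102490486, minus strand), had 232, 185 and 211 CPM at 12 h and no read in the 3 libraries of 0 h, so it was at least 9090-fold higher against a floor of 3 counts over the group. Krt23, a keratin of intermediate filaments, had 142, 104 and 108 CPM at 12 h and no read at 0 h, at least 5110-fold higher on the same floor. Spp1, the secreted glycoprotein osteopontin (chr5:104435118-104441050, plus strand), had 14430, 14430 and 13670 CPM at 12 h, against 1.34, 2.32 and 1.15 CPM at 0 h (log2 change 13.09, SE 0.34, adjusted p 1.78e-14). The 3 libraries of 12 h lay close together, far above those of 0 h. Ptprn, a receptor-type tyrosine phosphatase of secretory granules, had 566, 508 and 539.8 CPM at 12 h, against 0.0819, 0.12 and 0.0919 CPM at 0 h (log2 change 12.35, SE 0.34, adjusted p 2.47e-14). Olr1, a scavenger receptor for oxidised lipoprotein, had 168, 141 and 150.3 CPM at 12 h, against 0, 0.04 and 0.046 CPM at 0 h (log2 change 12.14, SE 0.34). Sult1e1, the sulfotransferase that inactivates estrogens, had 53.2, 52.5 and 45.4 CPM at 12 h and 1 read in all at 0 h, a ratio of 6530 (95% counting interval 1170 to 258000).

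Tnfaip6, Ptx3 and Has2, central genes of the matrix of the expanded cumulus, rose, and the list around them held members of both directions. Of the hyaluronan matrix genes, 11 of 22 rose and 5 fell, with a median log2 change of 1.0 against -0.09 over all genes. Tnfaip6, which transfers protein chains onto hyaluronan (chr2:52038009-52056686, plus strand), had 1079, 829.6 and 977 CPM at 12 h, against 0.382, 0.48 and 0.551 CPM at 0 h (log2 change 10.97, SE 0.36, adjusted p 1.22e-13). Ptx3, a pentraxin that binds these chains (chr3:66219910-66225805, plus strand), had 970.3, 671 and 816 CPM at 12 h, against 0.137, 0.3 and 0.276 CPM at 0 h (log2 change 11.69, SE 0.5, adjusted p 1.87e-12). Has2, the main hyaluronan synthase of granulosa cells (chr15:56665627-56694539, minus strand), had 67.4, 54.3 and 56.7 CPM at 12 h, against 2.84, 1.48 and 1.01 CPM at 0 h (log2 change 5.09, SE 0.39, adjusted p 3.71e-09). The times were apart in every library for all 3 genes. Vcan, a large hyaluronan-binding proteoglycan, had 1463, 1633 and 1303 CPM at 12 h, against 251, 178 and 178 CPM at 0 h (log2 change 2.86, SE 0.22), and Cd44, the cell surface receptor for hyaluronan, had 65.4, 66.6 and 70.6 CPM at 12 h, against 6.99, 2.92 and 4.07 CPM at 0 h (log2 change 3.87, SE 0.27). Sdc1, a heparan sulfate proteoglycan of the cell surface (chr12:8771323-8793715, plus strand), had 9217, 8747 and 9171 CPM at 12 h, against 199.8, 181 and 165 CPM at 0 h (log2 change 5.64, SE 0.18). The times did not overlap for Vcan, Cd44 or Sdc1. Cemip, a hyaluronan-degrading protein, had 32.8, 33.4 and 30.5 CPM at 12 h, against 0.655, 0.28 and 0.414 CPM at 0 h (log2 change 6.2, SE 0.37). Ugdh, which makes the hyaluronan precursor UDP-glucuronate, rose too (log2 change 2.6), while Has3 fell (-1.5) and Hapln1, a link protein, was not called (0.43, adjusted p 0.619).

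Several of these genes were higher at 4 h than at 12 h. In cumulus libraries of 4 h, Has2 had 505, 726 and 351 CPM, all above the 12 h libraries. Ptx3 had 3600, 3371 and 2262 CPM and Areg 157, 222 and 134 CPM at 4 h, also above every library of 12 h. Pgr, the progesterone receptor that is needed for follicle rupture, was at 0.191, 0.08 and 0.161 CPM at 0 h, 84.2, 82.4 and 44.5 CPM at 4 h and 1.12, 0.674 and 0.713 CPM at 12 h. Its rise at 12 h relative to 0 h (log2 change 2.56, adjusted p 0.00183) was small beside its level at 4 h. Star and Ereg ran the other way, with Star at 3.5, 3.8 and 3.86 CPM at 0 h, 159, 147 and 92.5 CPM at 4 h and 384, 292 and 367 CPM at 12 h. These levels of 4 h are given as a description.

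**Figure D3:**
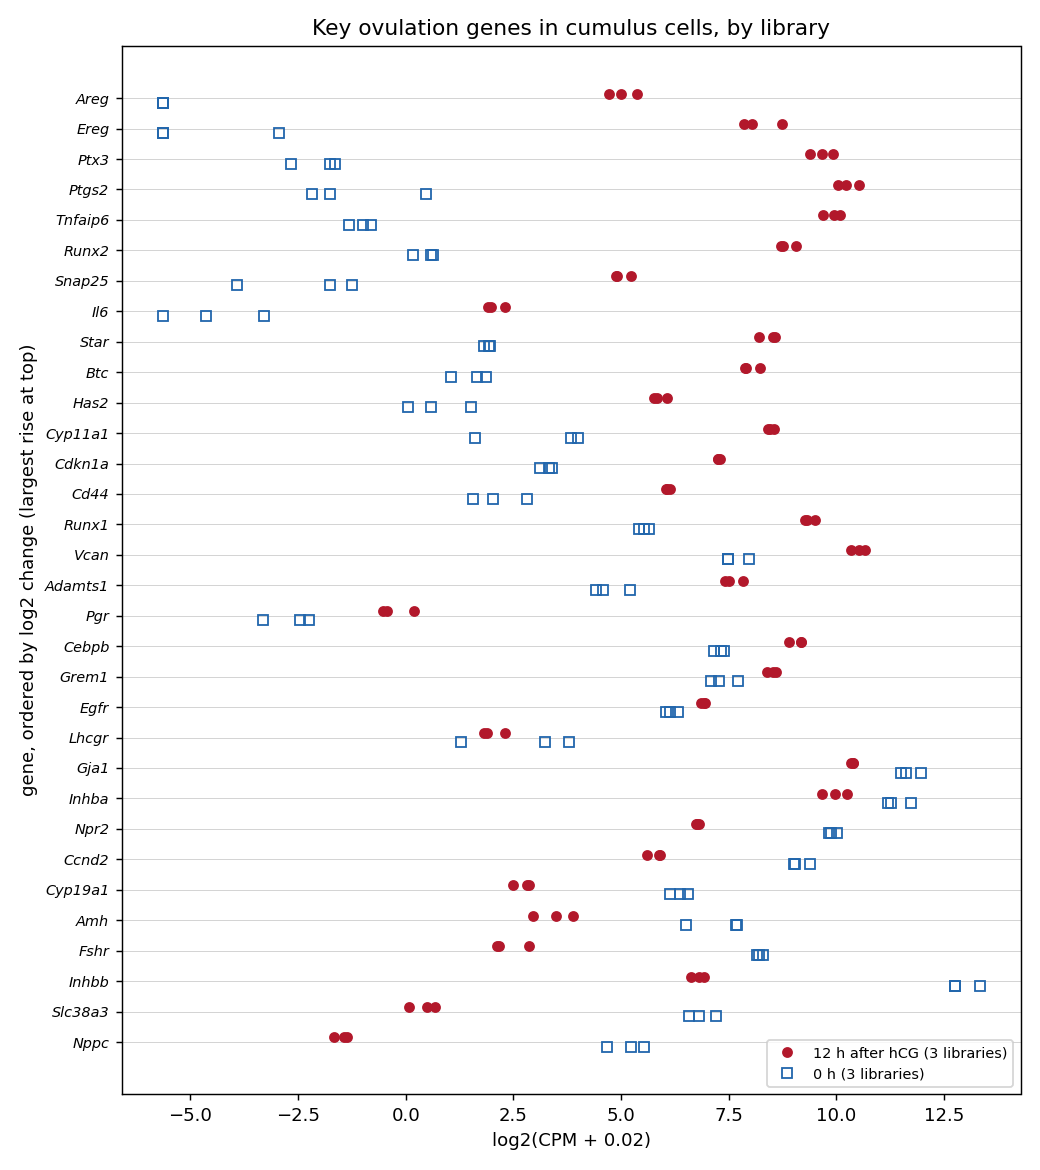
Each row is a key ovulation gene and each symbol a cumulus library, by log2(CPM + 0.02), with filled circles for 12 h and open squares for 0 h; a level of 0 lies at the left edge. The libraries of the 2 times are apart for 31 of the 32 genes, against 69.3% of all genes tested, and those of Lhcgr overlap. The key genes were chosen with earlier results of these data known.

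EGF-like ligands and their feedback genes were led by the ligands Areg, Ereg and Btc and the phosphatase genes Dusp4 and Dusp6. Of the list of EGF-like ligands, receptors and ERK feedback, 14 of 21 rose and 5 fell, with a median log2 change of 1.55. Areg, amphiregulin, had 41.5, 26.4 and 32 CPM at 12 h and no read at 0 h, at least 1440-fold higher against a floor of 3 counts over the group. Ereg, epiregulin, had 428, 231 and 264 CPM at 12 h, against 0.109, 0 and 0 CPM at 0 h (log2 change 13.14, SE 0.6, adjusted p 4.91e-12), and Btc, betacellulin, had 298, 237 and 234 CPM at 12 h, against 3.14, 3.62 and 2.04 CPM at 0 h (log2 change 6.44, SE 0.26, adjusted p 8.86e-13). All 3 ligands activate the EGF receptor, whose own gene Egfr had 121, 115 and 124 CPM at 12 h, against 80.2, 65.4 and 69.7 CPM at 0 h (log2 change 0.74, SE 0.18). Hbegf, another ligand of this receptor, fell, with 0.443, 0.147 and 0.264 CPM at 12 h, against 8.93, 7.4 and 7.74 CPM at 0 h (log2 change -4.8, SE 0.33). Of the genes that damp this signal, Dusp4 and Dusp6, phosphatases that switch off ERK, had log2 changes of 10.14 and 7.64, and Errfi1, an inhibitor of the EGF receptor, had 569, 314 and 445 CPM at 12 h, against 16.5, 23.4 and 21.3 CPM at 0 h. Spry2 rose (3.61), whereas Spry1 (-6.63) and Spry4 (-3.45) fell. Of the 5 members that fell, 4 were oocyte-linked (Spry1, Spry4, Egf and Nrg1).

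Promoters of this list were searched for the cAMP response element TGACGTCA, which reads the same on both strands. In general cAMP is the second messenger of the hCG receptor, whose gene Lhcgr was low in these cumulus libraries. Whether cAMP acts on these genes here was not tested. The windows run 300 bases, from 250 before to 50 after the start of the gene, as given by RefSeq for GRCm38.p6. The letters were found in 3 of the 15 list promoters available (20%), against 3.09% of the 13758 promoters of genes tested, and in 0 of the 14 promoters of immediate early genes. The 3 promoters follow, at chr5:91139349-91139648, plus strand (Areg), chr4:150854820-150855119, plus strand (Errfi1) and chr17:26508423-26508722, minus strand (Dusp1), with the element in capitals.
Areg: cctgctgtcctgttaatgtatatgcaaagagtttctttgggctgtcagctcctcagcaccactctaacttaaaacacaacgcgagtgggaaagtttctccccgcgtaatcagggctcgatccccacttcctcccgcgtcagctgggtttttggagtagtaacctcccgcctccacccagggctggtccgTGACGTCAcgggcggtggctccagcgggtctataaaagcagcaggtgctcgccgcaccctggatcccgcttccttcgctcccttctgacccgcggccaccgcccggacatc
Errfi1: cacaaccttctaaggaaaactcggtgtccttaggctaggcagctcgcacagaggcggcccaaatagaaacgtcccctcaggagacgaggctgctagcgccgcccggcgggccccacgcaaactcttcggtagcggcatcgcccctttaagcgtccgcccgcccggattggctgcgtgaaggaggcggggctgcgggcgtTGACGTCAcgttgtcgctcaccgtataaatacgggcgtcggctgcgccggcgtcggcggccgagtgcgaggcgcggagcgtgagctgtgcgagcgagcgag
Dusp1: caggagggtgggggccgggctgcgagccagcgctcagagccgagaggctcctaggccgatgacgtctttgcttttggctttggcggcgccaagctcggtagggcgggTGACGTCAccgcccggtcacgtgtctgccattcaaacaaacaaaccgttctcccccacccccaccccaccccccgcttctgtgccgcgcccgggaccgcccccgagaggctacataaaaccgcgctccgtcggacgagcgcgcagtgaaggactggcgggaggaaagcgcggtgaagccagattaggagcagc
A match is a description of these letters, not of binding, and its absence says only that the letters are not in this window. Errfi1 and Dusp1 had log2 changes of 4.44 and 1.55, and the values of Areg are given with the ligands of the EGF receptor.

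Immediate early genes are those that cells switch on first after a stimulus, many of them transcription factors. Of the list, 15 of 19 rose and 0 fell, with a median log2 change of 2.62. Egr3 had 283, 212 and 233 CPM at 12 h, against 0.137, 0 and 0 CPM at 0 h (log2 change 12.50, SE 0.47, adjusted p 4.39e-13), and Egr2, of the same zinc finger family, had 61.6, 66.3 and 67.3 CPM at 12 h, against 1.09, 0.14 and 0.23 CPM at 0 h. Nr4a3, an orphan nuclear receptor, had 19.8, 15.4 and 16.2 CPM at 12 h, against 0.0546, 0.02 and 0.161 CPM at 0 h, and Ier3, an early response gene, had 709.7, 626 and 709 CPM at 12 h, against 5.73, 5.96 and 5.93 CPM at 0 h (log2 change 6.86, SE 0.24). The 4 members not called were Fos, Fosb, Jun and Egr1, and their 0 h values depended on the library that stood apart. Fosb had 93.2, 64.4 and 73.2 CPM at 12 h, against 542, 5.02 and 6.55 CPM at 0 h, and Egr1 had 548, 352 and 432 CPM at 12 h, against 353, 16.8 and 15.5 CPM at 0 h. Replicate 1 was the highest of the 0 h group for both genes, and for Fosb higher than any library of 12 h. In mural cells replicate 1 at 0 h was also the highest of its group for Fosb, with 136, 4.46 and 6.91 CPM. At 0 h, 10 of the 19 genes were at least 2 times higher in replicate 1 than in either of the others. Without that library 18 of 19 rose, and Fosb turned to a log2 change of 3.74 (adjusted p 0.0491) and Fos to 1.36 (adjusted p 0.137).

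Genes of the follicular phase fell and those of progesterone synthesis rose. Of the follicular-phase genes, 1 of 16 rose and 15 fell (median log2 change -1.98). Inhbb, which encodes the inhibin and activin beta B chain (chr1:119415465-119422248, minus strand), had 112, 98.1 and 122 CPM at 12 h, against 10260, 6946 and 6892 CPM at 0 h (log2 change -6.18, SE 0.3, adjusted p 5.95e-12). Fshr, the receptor for follicle stimulating hormone (chr17:88984952-89200675, minus strand), had 4.29, 4.43 and 7.26 CPM at 12 h, against 316, 292 and 287 CPM at 0 h (log2 change -5.8, SE 0.23, adjusted p 1.05e-12), and Cyp19a1, aromatase, which makes estradiol, had 5.56, 7.07 and 7.21 CPM at 12 h, against 93.6, 70 and 83 CPM at 0 h (log2 change -3.63, SE 0.28). The 12 h libraries were below all 0 h libraries for each of the 3. Amh, anti-Müllerian hormone, had 14.7, 11.3 and 7.69 CPM at 12 h, against 206, 204 and 90.3 CPM at 0 h (log2 change -3.9, SE 0.46) and Ccnd2, the cyclin driven by FSH, had 59.6, 48.8 and 59.1 CPM at 12 h, against 671, 518 and 525 CPM at 0 h (log2 change -3.35, SE 0.19). The single riser was Grem1, an antagonist of bone morphogenetic proteins, with 371, 386 and 336 CPM at 12 h, against 209.8, 154 and 136 CPM at 0 h (log2 change 1.13, SE 0.21, adjusted p 1.34e-04). The list of granulosa identity genes also holds Fshr and Amh, so its count partly repeats that of the follicular-phase genes. Granulosa identity genes went in the same direction: 1 of 15 rose and 11 fell, with Foxl2, the transcription factor that maintains granulosa cells, at a log2 change of -3.12. Their riser was Runx2, a runt transcription factor of the ovulatory response (chr17:44495987-44814797, minus strand), with 435, 529.8 and 416 CPM at 12 h, against 1.47, 1.52 and 1.1 CPM at 0 h (log2 change 8.39, SE 0.35, adjusted p 1.29e-12).

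Of the genes for progesterone synthesis and luteal function, 13 of 18 rose and 4 fell (median log2 change 1.61). Star, which carries cholesterol into mitochondria, had 384, 292 and 367 CPM at 12 h, against 3.5, 3.8 and 3.86 CPM at 0 h (log2 change 6.54, SE 0.28, adjusted p 1.41e-12). Cyp11a1, which cuts the cholesterol side chain to give pregnenolone, had 351, 340.3 and 377 CPM at 12 h, against 14.3, 16 and 3.03 CPM at 0 h (log2 change 5.0, SE 0.45, adjusted p 3.60e-08), and Fdx1, the ferredoxin that feeds it electrons, had 1639, 1450 and 1563 CPM at 12 h, against 42, 31.5 and 27 CPM at 0 h (log2 change 5.53, SE 0.26). None of these overlapped between times. Akr1c18, the enzyme that breaks down progesterone in mice, had 64.4, 77 and 58.6 CPM at 12 h, against 2.21, 2.36 and 1.54 CPM at 0 h (log2 change 5.03, SE 0.28). Lhcgr had 4.88, 3.69 and 3.49 CPM at 12 h, against 13.7, 9.45 and 2.41 CPM at 0 h, and its libraries overlapped. Its fall (log2 change -1.08, adjusted p 0.0416) lost significance under 10 of the 13 other settings.

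Cholesterol synthesis and uptake rose as a group: 22 of 25 rose and 1 fell, 13 of the risers past 2-fold, with a median of 1.30. Cyp51, the lanosterol demethylase, had 539, 536 and 498 CPM at 12 h, against 154, 112 and 119 CPM at 0 h (log2 change 2.03, SE 0.19, adjusted p 3.17e-08), and Sqle, squalene epoxidase, had 475, 375 and 419.8 CPM at 12 h, against 176, 130 and 139.9 CPM at 0 h (log2 change 1.51, SE 0.15). Each lay higher in all 3 libraries of 12 h. Mvk, mevalonate kinase, was the member that fell (-0.86). The sterol response element TCACNCCAC, searched on both strands of the same windows, was present in 1 of 17 list promoters (5.88%), against 1.47% of genes tested. It is in capitals in the promoter of Hmgcs1, the HMG-CoA synthase of the pathway, at chr13:119690101-119690400, plus strand.
Hmgcs1: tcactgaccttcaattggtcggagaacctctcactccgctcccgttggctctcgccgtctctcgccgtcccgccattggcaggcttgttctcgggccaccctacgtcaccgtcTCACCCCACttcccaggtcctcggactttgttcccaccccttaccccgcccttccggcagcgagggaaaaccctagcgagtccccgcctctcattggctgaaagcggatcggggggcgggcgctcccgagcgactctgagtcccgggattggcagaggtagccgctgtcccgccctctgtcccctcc
Hmgcs1 had a log2 change of 1.56.

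Prostaglandin genes were mixed: 8 of 17 rose and 3 fell (median 0.31). With library totals 6 fell (median 0.041), and with its 3 oocyte-linked members left out the median was 2.08. Ptgs2, the inducible cyclooxygenase, had 1477, 1049 and 1193 CPM at 12 h, against 1.36, 0.2 and 0.276 CPM at 0 h (log2 change 11.07, SE 0.59, adjusted p 3.68e-11), and Slco2a1, a prostaglandin transporter, had 74.4, 73 and 73.5 CPM at 12 h, against 0.628, 1.1 and 1.13 CPM at 0 h. Ptgs1, the constitutive cyclooxygenase, reached 4.43, 4.81 and 5.55 CPM at 12 h, against 0.164, 0.1 and 0 CPM at 0 h. Hpgd, which inactivates prostaglandins, went down, with 5.79, 5.31 and 5.07 CPM at 12 h, against 117, 103 and 99.8 CPM at 0 h (log2 change -4.31, SE 0.32).

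Slc38a3, Npr2 and Nppc, genes of the dialogue with the oocyte, fell. Slc38a3, which supplies alanine and histidine to the oocyte (chr9:107650634-107669530, minus strand), had 1.03, 1.38 and 1.58 CPM at 12 h, against 96.1, 148 and 113 CPM at 0 h (log2 change -6.47, SE 0.38, adjusted p 1.16e-10). Npr2, the receptor whose cGMP keeps the oocyte arrested, had 109, 113 and 107 CPM at 12 h, against 1037, 911 and 931 CPM at 0 h (log2 change -3.13, SE 0.18, adjusted p 5.64e-11), and Nppc, its ligand, had 0.296, 0.352 and 0.37 CPM at 12 h, against 46.3, 37.7 and 25.4 CPM at 0 h (log2 change -6.73, SE 0.39, adjusted p 9.85e-11). All 3 were lower in each library of 12 h. The wider list of natriuretic peptide and cGMP genes split, 4 of 12 rose and 6 fell, and Npr1, the receptor for atrial natriuretic peptide, had 25.2, 51.6 and 29.2 CPM at 12 h, against 1.06, 1.72 and 0.368 CPM at 0 h. Its median was -0.59, and 0.021 with its 2 oocyte-linked members left out, when 4 rose and 4 fell. Of the gap junction genes, 2 of 12 rose and 8 fell (median -1.64). Gja1, connexin 43, which couples granulosa cells, had 1342, 1346 and 1293 CPM at 12 h, against 4016, 3132 and 2899 CPM at 0 h (log2 change -1.34, SE 0.17, adjusted p 2.92e-06), and Gja4, connexin 37 of the oocyte side, had 0.236, 0.0586 and 0.317 CPM at 12 h, against 14, 63.8 and 58.2 CPM at 0 h. Of these 12 genes 5 were oocyte-linked, such as Gja4, and with those left out 4 of the gap junction genes fell. Over the settings run the median of this list ranged from -2.08 to -0.435. Of the genes for projections and adhesion, 9 of 15 rose and 3 fell, with Ezr and Msn, which link actin to the membrane, at log2 changes of 3.33 and 3.02 and Nectin1, an adhesion protein, at -3.47.

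Genes of DNA replication and mitosis fell. Of the DNA replication genes, 0 of 25 rose and 25 fell, 23 of those past 2-fold, with a median log2 change of -1.95. Mcm3, a subunit of the replicative helicase, had 42.6, 32.6 and 35.5 CPM at 12 h, against 256, 205 and 213 CPM at 0 h (log2 change -2.61, SE 0.16, adjusted p 1.50e-10), and Cdc6, which loads that helicase, had 3.43, 2.26 and 3.8 CPM at 12 h, against 37.3, 32.3 and 33.1 CPM at 0 h (log2 change -3.43, SE 0.24, adjusted p 1.03e-09). E2f1, the transcription factor of the step into S phase, had 16.3, 14.6 and 14.8 CPM at 12 h, against 95.9, 101 and 106 CPM at 0 h (log2 change -2.73, SE 0.26). The libraries did not overlap between times for any of the 25 genes. None of the 25 was oocyte-linked, but 2 of the mitosis genes given next were. E2f1 (r 0.75, slope 0.28) and Birc5 (r 0.69, slope 0.25) came near the rule for oocyte-linked genes. The part of oocyte RNA in these falls was not tested. Of the mitosis genes, 0 of 24 rose and 24 fell (median -1.29): Birc5, survivin, had 25.7, 24.9 and 20.6 CPM at 12 h, against 105, 101 and 109.6 CPM at 0 h, and Aurkb, a kinase of chromosome segregation, had 39, 29.9 and 31.7 CPM at 12 h, against 143, 100.5 and 117 CPM at 0 h. Of the cyclin-dependent kinase inhibitors and p53 targets, 14 of 20 rose and 4 fell: Cdkn1a, p21, had 151, 152 and 157 CPM at 12 h, against 8.71, 9.96 and 10.5 CPM at 0 h (log2 change 3.98, SE 0.26, adjusted p 4.53e-10) and Cdkn2b, p15, had 8.07, 8.94 and 9.09 CPM at 12 h, against 0.137, 0.2 and 0 CPM at 0 h, while Cdkn1c, p57, fell (log2 change -1.92).

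The E2F letters TTTGGCGC or TTTCGCGC, on either strand, were found in 6 of the 20 replication promoters available (30%), against 1.5% of the promoters of genes tested. Those of Mcm3 (chr1:20820263-20820562, minus strand), Mcm5 (chr8:75109259-75109558, plus strand) and Mcm6 (chr1:128359656-128359955, minus strand), subunits of 1 helicase that moved together, are shown with the letters in capitals. In Mcm5 and Mcm6, matches on the 2 strands overlap and share 1 run of capitals.
Mcm3: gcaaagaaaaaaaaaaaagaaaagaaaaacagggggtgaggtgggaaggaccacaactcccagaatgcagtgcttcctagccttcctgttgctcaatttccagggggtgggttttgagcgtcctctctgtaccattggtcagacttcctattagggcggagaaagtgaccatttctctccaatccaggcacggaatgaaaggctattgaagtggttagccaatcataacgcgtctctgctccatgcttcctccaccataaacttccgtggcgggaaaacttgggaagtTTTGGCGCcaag
Mcm5: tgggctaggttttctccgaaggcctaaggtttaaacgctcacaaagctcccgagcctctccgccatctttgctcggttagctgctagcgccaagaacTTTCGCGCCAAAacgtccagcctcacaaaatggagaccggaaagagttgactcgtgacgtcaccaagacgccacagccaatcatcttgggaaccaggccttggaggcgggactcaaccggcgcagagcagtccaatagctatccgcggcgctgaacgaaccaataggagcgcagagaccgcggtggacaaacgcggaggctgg
Mcm6: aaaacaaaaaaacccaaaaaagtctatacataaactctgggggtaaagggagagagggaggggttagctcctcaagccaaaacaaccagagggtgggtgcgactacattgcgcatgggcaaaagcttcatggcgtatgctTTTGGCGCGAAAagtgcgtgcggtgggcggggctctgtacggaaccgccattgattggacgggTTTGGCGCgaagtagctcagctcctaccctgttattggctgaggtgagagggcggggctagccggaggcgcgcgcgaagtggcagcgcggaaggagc
Their log2 changes were -2.61, -2.36 and -2.16. The other matches were in Cdt1, Pola1 and Mcm7.

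Collagens and basement membrane proteins rose in cumulus cells. Of the list, 15 of 22 rose and 4 fell, 14 of the risers past 2-fold, with a median log2 change of 2.14. Col4a1 and Col4a2, the pair of chains of the main collagen IV network, lie head to head on GRCm38 (chr8:11198423-11312826, minus strand and chr8:11312805-11449287, plus strand), and their annotated ends overlap slightly. Col4a1 had 1338, 1102 and 1380 CPM at 12 h, against 3.77, 4.44 and 4.09 CPM at 0 h (log2 change 8.28, SE 0.27, adjusted p 9.15e-14). Col4a2 had 891, 755 and 932 CPM at 12 h, against 4.61, 4.2 and 3.86 CPM at 0 h (log2 change 7.67, SE 0.24, adjusted p 5.51e-14). For both chains every library of 12 h lay far above every library of 0 h. Col18a1, a basement membrane collagen, had 719.5, 711 and 671 CPM at 12 h, against 4.42, 3.62 and 0.483 CPM at 0 h (log2 change 7.95, SE 0.5), and Col5a1, a fibril collagen, had 196, 238 and 183 CPM at 12 h, against 3.36, 2.54 and 2.73 CPM at 0 h (log2 change 6.16, SE 0.25). Nid1, nidogen, which ties laminin to collagen IV, had 128, 127 and 133 CPM at 12 h, against 7.95, 6.44 and 6.43 CPM at 0 h, and Fn1, fibronectin, had 176, 239 and 183 CPM at 12 h, against 15.5, 11.6 and 15.4 CPM at 0 h. The kidney-type collagen IV chains Col4a3 (-4.7) and Col4a4 (-1.3) fell, as did Nid2 (-1.15).

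Of the matrix proteases and their inhibitors, 15 of 22 rose and 3 fell (median 2.19). Adamts1, the protease that cuts versican in the cumulus matrix, had 226, 181 and 171 CPM at 12 h, against 37.2, 21.2 and 23.8 CPM at 0 h (log2 change 2.81, SE 0.27, adjusted p 8.76e-08). Mmp19, a matrix metalloproteinase, had 41.5, 36.9 and 39.1 CPM at 12 h, against 0.328, 0.32 and 0.046 CPM at 0 h (log2 change 7.39, SE 0.4), and Timp1, an inhibitor of these enzymes, had 765, 708 and 736 CPM at 12 h, against 4.31, 4.26 and 4.53 CPM at 0 h (log2 change 7.4, SE 0.17). Plaur, the urokinase receptor, had 31.1, 24.4 and 32.7 CPM at 12 h, against 0.0546, 0.08 and 0.322 CPM at 0 h (log2 change 7.55, SE 0.41). Times were apart in all of these. Plat, tissue plasminogen activator, fell (log2 change -2.13).

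Secretory and lysosomal genes were higher at 12 h. Of the unfolded protein response and secretion list, 15 of 19 rose and 1 fell, but only 5 rose past 2-fold. Pdia4, a disulfide isomerase that folds secreted proteins, had 2334, 2738 and 2218 CPM at 12 h, against 378, 306 and 285 CPM at 0 h (log2 change 2.91, SE 0.15, adjusted p 2.43e-11), and Xbp1, a transcription factor of the secretory pathway, had 301, 273 and 272 CPM at 12 h, against 123, 87 and 80 CPM at 0 h (log2 change 1.54, SE 0.18). Hspa5, the chaperone BiP, had 2026, 1779 and 1903 CPM at 12 h, against 1800, 1417 and 1307 CPM at 0 h and was not called (adjusted p 0.0773), and Herpud1, of the degradation arm, was lower (-1.47). The libraries of Pdia4 and Xbp1 did not overlap between times. Of the lysosomal genes, 18 of 23 rose and 1 fell (median 1.17). Ctsb, a cathepsin protease, had 604, 571 and 594 CPM at 12 h, against 122, 95.4 and 91 CPM at 0 h (log2 change 2.52, SE 0.13, adjusted p 1.66e-11), and Lamp2, a lysosomal membrane protein, had 285, 283 and 283 CPM at 12 h, against 71.4, 61.2 and 58.2 CPM at 0 h (log2 change 2.16, SE 0.14). Tfeb, the transcription factor of lysosome genes, had 9.37, 8 and 8.8 CPM at 12 h, against 1.34, 1.86 and 1.52 CPM at 0 h (log2 change 2.47, SE 0.28).

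All 13 mitochondrially encoded genes fell (median -1.66), and mt-Co1, a subunit of cytochrome oxidase, had 7774, 7781 and 9003 CPM at 12 h, against 36730, 20790 and 20260 CPM at 0 h (log2 change -1.66, SE 0.22, adjusted p 2.75e-06). Replicate 1 was the highest at 0 h, and without it the median was -1.32. Of the nuclear genes of the respiratory chain, 5 of 28 rose and 12 fell, none past 2-fold; without that library 5 rose and 8 fell, and with library totals 1 rose and 19 fell. Of the cytosolic ribosomal protein genes, 0 of 35 rose and 27 fell, none past 2-fold (median -0.45). Rps15 had 387, 356 and 389 CPM at 12 h, against 808, 671 and 650.5 CPM at 0 h. Without 0 h replicate 1 the count was 18 and with library totals 35, so its size hung on both choices while its direction did not.

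Among transcription regulators and inflammatory genes more members rose than fell. Of the ovulatory transcription regulators, 12 of 18 rose and 5 fell: Runx1 had 724, 619 and 639 CPM at 12 h, against 42.6, 50.4 and 45.9 CPM at 0 h (log2 change 3.83, SE 0.21) and Cebpb, which mediates ERK signals in granulosa cells, had 577, 475 and 577 CPM at 12 h, against 168, 159 and 143 CPM at 0 h (log2 change 1.79, SE 0.13). Of the cytokines, chemokines and innate receptors, 13 of 25 rose and 2 fell. Pdcd1, the receptor PD-1, known from T cells (chr1:94038305-94052553, minus strand), had 292, 335 and 315 CPM at 12 h, against 0.273, 0.06 and 0 CPM at 0 h (log2 change 11.56, SE 0.41, adjusted p 2.49e-13). Il6, a cytokine of the cumulus response, had 4.88, 3.75 and 3.91 CPM at 12 h, against 0.0819, 0.02 and 0 CPM at 0 h (log2 change 6.93, SE 0.59), and Cd52, a surface glycoprotein known from lymphocytes, had 30.9, 30.9 and 32.4 CPM at 12 h, against 0.601, 0.44 and 0.23 CPM at 0 h. The summed level of 10 lymphocyte markers was 6 to 8.48 CPM at 12 h and 2.76 to 9.44 CPM at 0 h, with at least 4 of the 10 at 0 in each library. Their part in the values of Pdcd1 and Cd52 was not tested. Pdcd1, Il6 and Cd52 were higher in every library of 12 h than in any of 0 h. Snap25, a protein of vesicle fusion, had 37.2, 30.1 and 29.3 CPM at 12 h, against 0.273, 0.4 and 0.046 CPM at 0 h (log2 change 7.02, SE 0.28).

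Of the hypoxia and angiogenic genes, 14 of 19 rose and 2 fell: Angptl4, which inhibits lipoprotein lipase, had 320.2, 304 and 303 CPM at 12 h, against 13.3, 9.56 and 10.4 CPM at 0 h (log2 change 4.81, SE 0.16) and Ndrg1, a hypoxia-responsive gene, had 114, 152 and 116 CPM at 12 h, against 1.75, 2.08 and 0.598 CPM at 0 h. Of the apoptosis regulators, 10 of 22 rose and 5 fell: Mcl1, which protects cells, had 476, 449 and 433 CPM at 12 h, against 132, 94.6 and 93.2 CPM at 0 h, and Bcl2l1, another protective gene, moved the other way, with 22.5, 24.6 and 22.3 CPM at 12 h, against 90.5, 94.1 and 89.8 CPM at 0 h. Of the glutathione and peroxide genes, 11 of 24 rose and 6 fell, and Gsr, glutathione reductase, had 481, 542 and 490.2 CPM at 12 h, against 82.4, 68.3 and 65.8 CPM at 0 h. Glycolysis genes had no common direction, 5 of 22 rose and 5 fell, and the median of 0.01 changed sign under 7 of the other settings. In that list Hk2, the first enzyme of glycolysis, had 428, 402 and 399.5 CPM at 12 h, against 98.5, 84.8 and 73 CPM at 0 h, and Slc2a1, a glucose transporter, had 451, 431 and 376 CPM at 12 h, against 84.9, 58.5 and 64.5 CPM at 0 h. Among the amino acid transporters, 7 of 19 rose and 7 fell, and the median changed sign with library totals and without 0 h replicate 1. Slc7a8, a carrier of neutral amino acids, had 1919, 1805 and 1874 CPM at 12 h, against 64.7, 58 and 68.9 CPM at 0 h (log2 change 4.87, SE 0.17). None of the 8 genes given with values here overlapped between times.

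**Figure D4:**
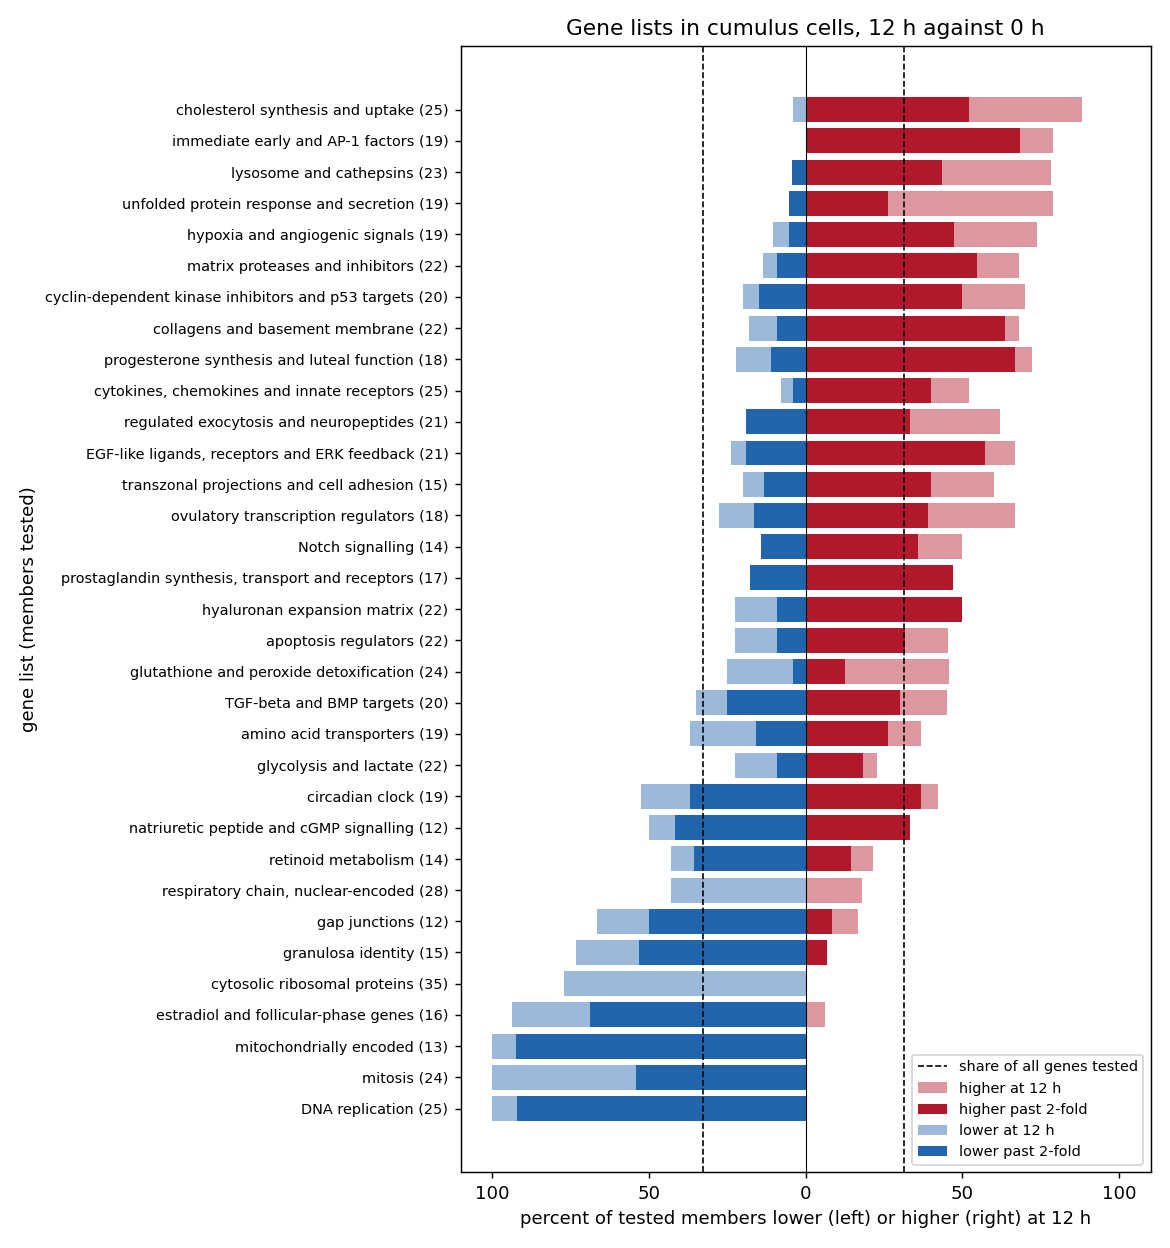
Bars give the percent of tested members of each gene list that were higher (right, red) or lower (left, blue) at 12 h, with past 2-fold in the dark shade; dashed lines mark the share among all genes, 31.2% higher and 32.9% lower. DNA replication, mitosis and mitochondrially encoded genes reach 100% lower, and cholesterol genes lead to the right.

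Markers of other cell types moved as well. The endothelial sum of 10 markers was 167 to 204 CPM at 12 h and 25.8 to 31.2 CPM at 0 h, and 1 or 2 of them were at 0 in each library of 12 h. Of these markers 2 of 10 rose and 6 fell (median log2 change -1.9). At 12 h most of the sum came from Cdh5, the cadherin of endothelial junctions, with 167, 149 and 175 CPM at 12 h, against 4.94, 4.02 and 3.06 CPM at 0 h, while Pecam1, another endothelial marker, had 3.84, 2.73 and 1.77 CPM at 12 h, against 3.19, 9.87 and 10 CPM at 0 h. The oviduct sum of 12 markers was 158 to 177 CPM at 12 h and 28.1 to 32 CPM at 0 h, and most of it was Krt8, a keratin of simple epithelia, with 149, 151 and 159 CPM at 12 h, against 26.2, 23.7 and 21.9 CPM at 0 h. Of the 9 oviduct markers tested, 5 rose and 3 fell, all 3 past 2-fold. Ovgp1, the oviduct glycoprotein, had 9.81, 2.32 and 12.5 CPM at 12 h, against 1.17, 1.02 and 1.4 CPM at 0 h. The neutrophil sum was 10.2 to 11.9 CPM at 12 h and 0.0546 to 0.94 CPM at 0 h, with Camp, an antimicrobial peptide gene, at 11.3, 9.7 and 10.5 CPM at 12 h, and 4 to 6 of its 10 markers at 0. The erythroid sum was 17.9 to 109 CPM at 12 h and 8.73 to 17.8 CPM at 0 h. The macrophage sum was 13.1 to 15.7 CPM and 12.6 to 27.3 CPM, the smooth muscle and stroma sum 14.8 to 18.6 CPM and 17.7 to 34.9 CPM, and the theca sum 658 to 677 CPM and 375 to 465 CPM, in the same order. The platelet sum was 7.89 to 8.66 CPM at 12 h and 0.873 to 1.77 CPM at 0 h, and the ovarian surface sum 40.2 to 48.9 CPM at 12 h and 4.75 to 9.04 CPM at 0 h. Members of these lists did not all move with the sums. Of the ovarian surface markers 3 of 8 rose and 1 fell, and of the theca markers 4 of 7 rose and 2 fell. Of those tested, 3 of 6 neutrophil markers rose and 1 fell, 4 of 7 erythroid markers rose and 1 fell, and 1 of 3 platelet markers rose. Of the macrophage markers 1 of 10 rose and 4 fell, and of the smooth muscle and stroma markers 3 of 10 rose and 2 fell. The part of these cell types in the results was not tested.

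The change in cumulus cells was set against that in mural cells by a test of the difference itself, cumulus minus mural change. It was called for 8003 of the 19941 genes (40.1%), 4017 with a higher change in cumulus cells (20.1%) and 3986 with a lower one (20%). Of genes called in both cell types 5743 moved the same way and 678 the opposite way. Across genes, which are not independent replicates, the 2 changes had a Pearson r of 0.585 and of 0.665 without oocyte-linked genes. The basement membrane list had a higher change in cumulus cells for 16 of 22 genes, against a mural median of -0.27. Col4a1 had 1970, 2239 and 2597 CPM in mural cells at 12 h and 235, 226 and 372 CPM at 0 h (difference 5.24, SE 0.3, adjusted p 1.64e-09). The secretion list had a higher change in cumulus cells for 15 of 19 genes, and the lysosome list for 15 of 23. Cumulus cells had a lower change in 21 of 25 replication genes, 21 of 24 mitosis genes and 27 of 35 ribosomal genes.

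Single genes differed in both directions. In cumulus cells Aldh1a3, which makes retinoic acid, had 150, 103 and 117 CPM at 12 h, against 0.246, 0.14 and 0.391 CPM at 0 h, with a log2 change of 0.1 in mural cells (difference 8.8, SE 0.44, adjusted p 5.95e-10). Wisp1, a matricellular protein, had 48.7, 30.2 and 42.8 CPM at 12 h, against 0, 0.04 and 0.046 CPM at 0 h there, with a log2 change of 2.27 in mural cells (difference 7.96, SE 0.57, adjusted p 1.53e-08). Grem1 rose in cumulus cells and had 18.7, 15 and 16.4 CPM in mural cells at 12 h and 588, 543 and 476 CPM at 0 h (difference 6.13, SE 0.31, adjusted p 7.21e-10). Ptx3 (difference 6.29, SE 0.73, adjusted p 3.97e-06) also had a higher change in cumulus cells. Adamts1 had a lower one (difference -2.15, SE 0.36, adjusted p 1.82e-04), and so did Runx1 (-0.99) and Snap25 (-1.63). Star, Cdkn1a, Il6 and Cebpb were not called for a difference, with cumulus minus mural values of 0.56, -0.45, -1.01 and -0.04.

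**Figure D5:**
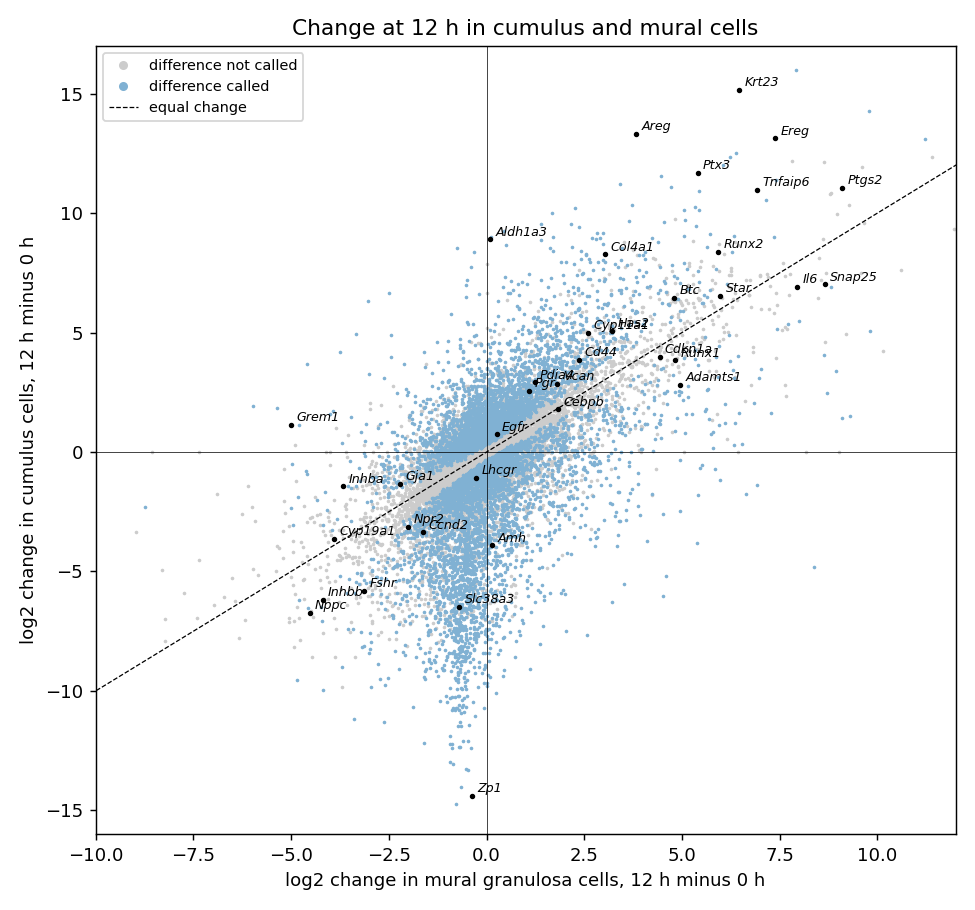
Each point is a gene by its log2 change at 12 h in mural granulosa cells (horizontal) and in cumulus cells (vertical); blue points passed the test of the difference, the dashed line marks equal change, and 1 gene lies outside the axes. Aldh1a3 stands at 8.9 in cumulus and 0.1 in mural cells, and Grem1 at 1.13 and -5.00.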

How the data were processed

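RNA of 18 libraries was sequenced with a stranded mRNA kit, per the labels' protocols. The authors deposited a table of whole-number read counts per gene, from unique matches by its name, made in CLC Genomics Workbench per the series' design text. The genome build is GRCm38 per the submitters' processing notes; which annotation, software version and strand option they used is not stated here, so overlapping and antisense genes cannot be told apart. Of 41325 entries, 19941 passed edgeR's filter (minimum count 10) and held 99.96% of counts.

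Counts were fitted in R 4.3.3 with edgeR 4.0.16 (TMM, robust quasi-likelihood model, a mean for each of 6 groups, 12 residual degrees of freedom); each adjusted p is from its quasi-likelihood test, or from its test against a 2-fold change, with Benjamini-Hochberg adjustment over all genes tested and a threshold of 0.05. DESeq2 1.42.0 was an alternative. Replicate numbers were not taken to pair the samples, between times or between cell types, so no block was used. The members and gene lists were chosen with earlier results of these data known. Named genes were 32 key genes, the 10 largest rises and falls with a mean of at least 20 CPM and no overlap, the 10 largest falls that were not oocyte-linked, 4 per list, and the 5 largest differences between cell types in each direction; other list members are named to show a count. Some genes of the cholesterol list are not reported singly here. Of 770 list genes 765 were in the table. On simulated counts, 64% of 2-fold and 93% of 4-fold changes were recovered for this comparison, in a test over 19457 genes. Changes were planted in 100 genes per fold size, all above a minimum level, and all other genes were set equal between the times. These shares therefore do not cover genes of low level or data in which most genes change. Gene positions are from GENCODE M21 and promoters from RefSeq (GRCm38.p6).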

Additional observations from a re-analysis of the deposited data

Results flagged for a closer look

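Of the 41 genes made up of the key genes and of the 5 largest differences in each direction, 33 changed differently at 12 h in cumulus and mural cells by the test of the difference itself, edgeR's quasi-likelihood test (40.1% of all genes did so). The 5 largest differences in each direction were picked from genes that passed this test, so the count of 33 was partly fixed by that choice. Of the 32 key genes alone, 24 passed it. Of all 168 genes chosen by the naming rule 133 passed it, 67 with a higher and 66 with a lower change in cumulus cells, and the values here are those of the 33. All values are cumulus minus mural log2 changes. Among the 33, hyaluronan matrix, EGF and prostaglandin genes with a positive difference were Areg (9.5), Ptx3 (6.29), Ereg (5.75), Tnfaip6 (4.06), Ptgs2 (1.97), Has2 (1.88), Btc (1.65), Cd44 (1.5) and Vcan (1.05). Other positive differences among them were those of Aldh1a3 (8.8), Krt23 (8.7), Nts (8.07), Wisp1 (7.96), Grem1 (6.13), Runx2 (2.47), Cyp11a1 (2.41), Inhba (2.23) and Gja1 (0.88). Areg, Krt23 and Nts had no read in cumulus cells at 0 h, so their differences depend on the prior count of the fit and are not bounds. Negative differences among the 33, outside the oocyte-linked genes, were those of Slc38a3 (-5.78), Amh (-4.04), Fshr (-2.67), Nppc (-2.2), Adamts1 (-2.15), Inhbb (-1.99), Ccnd2 (-1.73), Snap25 (-1.63), Npr2 (-1.13) and Runx1 (-0.99). The oocyte-linked genes with the most negative differences were Zp1 (-14.01), Eif4e1b (-13.96), Fbxw21 (-12.85), Tuba3a (-12.19) and Fbxw16 (-10.26), whose fitted changes rest on libraries with no or almost no reads at 12 h and are not bounds.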

How the results depend on the processing

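The count of called genes was 12796, and between 11887 and 12708 when each of the 6 libraries was left out in turn. It was 13155 with library totals, 12537 with no filter, 12087 with the 6 cumulus libraries alone, 13452 without the 4 h cumulus libraries and 13159 with DESeq2, where 1 adjusted p was not given. With the replicate number as a block, 12777 genes were called; same-numbered deviations correlated at 0.0156, 0.00354 and -0.00282, and those of cumulus and mural libraries at 0.00922, -0.00504 and -0.00801 at 12 h and at 0.375, -0.0597 and 0.272 at 0 h, so not every pair passed 0.1 and the numbers were not taken to pair the samples. The block gave 8157 genes with a difference between cell types, against 8003. Leaving out the oocyte-linked genes gave 10923 called and lowered the falls past 2-fold to 1990, against 3393. With single libraries left out, the difference between cell types ran from -0.12 to 0.056 for Cebpb, positive without 12 h replicate 2 (0.056) and without 0 h replicate 1 (0.02), and from -1.58 to 0.30 for Il6, positive without 0 h replicate 1; neither was called in any of these. Likewise the change ran from -1.83 to 3.74 for Fosb and from -1.14 to 1.36 for Fos, both positive without 0 h replicate 1, and that of Fosb was 0.29 with the replicate block. Of 177 genes named by rule or to show a count, 173 were called and 170 of these kept direction and call under every setting run. Most of these genes were picked from those called, by the size of their change. Their share therefore does not stand for all genes tested, of which 64.2% were called. Lhcgr (-1.54 to -0.57), Sod3 and Jund lost the call under some settings; the difference lost it for Ptgs2 under 6 settings, Has2 under 3 and Snap25 under 1. The cause was not tested. Depth limits genes near the floor of 3 counts in a library.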

Other observations

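Clock genes had no common direction in cumulus cells at 12 h: 8 of 19 rose and 10 fell (median log2 change -0.76), and with the 6 oocyte-linked members left out 5 rose and 7 fell (median -1.42). Bhlhe40, a repressor of the clock, had 651, 606 and 592 CPM at 12 h, against 43.2, 54.6 and 51.9 CPM at 0 h (log2 change 3.63), and its relative Bhlhe41 moved the other way, with 0.325, 0.117 and 0.0792 CPM at 12 h, against 7.15, 8.36 and 10.2 CPM at 0 h (-5.61). Bhlhe41 came close to the rule for oocyte-linked genes, with an r of 0.775 and a slope of 0.602. Per3, a period gene, was oocyte-linked and had a log2 change of -2.84. Of the retinoid genes, 3 of 14 rose and 6 fell, and the leading members moved apart, Aldh1a3 at 8.9 and Stra6 at -7.76.

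Of the Notch genes, 7 of 14 rose and 2 fell: Jag1, a Notch ligand, had 196, 148 and 144 CPM at 12 h, against 6.03, 19.5 and 15.7 CPM at 0 h, and Notch2, its receptor, had 552, 532 and 465 CPM at 12 h, against 59.5, 48.4 and 46.7 CPM at 0 h, while the ligand Jag2 was oocyte-linked and had a log2 change of -3.66. Of the TGF-beta and BMP genes, 9 of 20 rose and 7 fell: Tgfbr1, a receptor, had 1461, 1210 and 1468 CPM at 12 h, against 104, 83.6 and 70.2 CPM at 0 h, and Id3, a target of bone morphogenetic proteins, had 55.5, 58.7 and 57.2 CPM at 12 h, against 387, 357 and 336 CPM at 0 h. Of the exocytosis and neuropeptide genes, 13 of 21 rose and 4 fell; Vgf, a granule protein, had 1.48, 1.11 and 2.09 CPM at 12 h and no read at 0 h, at least 68.5-fold higher on a floor of 3 counts over the group.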
